A study of Mus musculus with 4 samples.

Results

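The genes described here build the keratin filaments, the desmosomes and the cornified surface of stratified epithelium. They were taken by gene symbol: probe sets (the array's groups of oligonucleotides for a transcript) with a single symbol that names a keratin (Krt), a keratin-associated protein (Krtap), a small proline-rich protein (Sprr), an S100a protein, a desmosomal cadherin (Dsc, Dsg), a plakophilin (Pkp) or a claudin (Cldn), and those of 16 further symbols from Dsp to Trp63. The rule itself used no measured value, but the members were chosen with earlier results of these data known. The rule gave 141 of the 12488 probe sets on the array, for 100 of 8251 genes with a symbol. Of these, 59 probe sets for 53 genes had a mean signal of at least 50 over the 4 arrays and were tested, and 82 lay below that filter, so that 47 genes had only probe sets below it.

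Keratins are intermediate filament proteins that assemble from a type I and a type II partner, and the partners in use mark the kind of epithelium and its layer. Desmosomes anchor these filaments at cell contacts: cadherins (desmocollins and desmogleins) span the membrane, and plakophilins, plakoglobin and desmoplakin link them to keratin. Proteins such as loricrin, involucrin and the small proline-rich proteins are cross-linked into the cornified envelope when epithelial cells terminally differentiate. The tooth germ holds an epithelial part that invaginates from the oral epithelium into a condensed mesenchyme, so that the genes report on only some of its cells.

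NMRI mouse embryos of embryonic day 14 gave the mandibular molar regions, which were grown as explants for 24 h in medium with fetal calf serum. The exposed group received 1 µM TCDD, a dioxin that activates the aryl hydrocarbon receptor, and the control group received the solvent DMSO at 0.65%. There were 2 arrays (murine U74v2A, Affymetrix) per group, each from RNA of about 60 explants pooled over 3 experiments. The label of DMSO replicate 2 alone lists ascorbic acid in the medium, and the cRNA came from 11 µg of RNA for replicate 1 of both groups, 7 µg for DMSO replicate 2 and 8 µg for TCDD replicate 2. The comparison asks which transcripts differ after TCDD, and its p-values measure only the spread between these pools.

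Values are MAS5 signals on a linear scale, set by the authors to a target of 100 per array. Differences are TCDD minus DMSO on the log2(signal + 16) scale, which understates changes of dim probe sets, and errors of differences are standard errors from limma. Because probe sets differ in brightness for reasons of their sequence, a signal was never set against that of another probe set, and a dim probe set does not show that its gene was silent. Among the tested members 11 probe sets bear the suffix f, for probes shared across a family, and may also read related transcripts. Besides Sprr2 genes these are probe sets of Krt13, Krt17, Krt2, Pkp1, Dsc2 and S100a13. As a check of the exposure, Cyp1a1, a target gene of the receptor, rose from signals of 14.7 and 12.7 with DMSO to 194.8 and 210.5 with TCDD (limma adjusted p 3.7e-04). As a check of the tissue, 7 of 10 dental mesenchyme markers reached the filter, with Msx1 between 540.6 and 705.0. Of 8 dental epithelium markers 4 did. Shh, a signal of the dental epithelium, had 79.5 and 162.1 in DMSO and 60.8 and 184.2 in TCDD, while Fgf8, Fgf9, Bmp2 and Wnt10b stayed at or below 20.8 on every array.

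Sequences upstream of the start were searched for features that the rule did not use. RefSeq windows of 250 bases before the start (GRCm38.p6) were matched for 69 of the 100 genes. The windows below belong to genes with a tested probe set among the 12 of smallest p, in the order Krtap3-1, Lgals3, Krtdap and the first listed start of Krt13. Pkp4, also among the 12, has 2 listed starts, of which 1 holds GCGTG, and is not printed. Capitals mark TATAAA, the core of a TATA box, and GCGTG, the core that the aryl hydrocarbon receptor and its partner bind, each searched on both strands.
Krtap3-1, chr11:99566631-99566880, minus strand: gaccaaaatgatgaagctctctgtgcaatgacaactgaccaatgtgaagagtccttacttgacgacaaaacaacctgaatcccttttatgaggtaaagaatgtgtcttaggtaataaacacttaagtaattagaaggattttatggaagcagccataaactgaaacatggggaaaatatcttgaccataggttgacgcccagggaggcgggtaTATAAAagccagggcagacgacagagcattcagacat
Lgals3, chr14:47373610-47373859, plus strand: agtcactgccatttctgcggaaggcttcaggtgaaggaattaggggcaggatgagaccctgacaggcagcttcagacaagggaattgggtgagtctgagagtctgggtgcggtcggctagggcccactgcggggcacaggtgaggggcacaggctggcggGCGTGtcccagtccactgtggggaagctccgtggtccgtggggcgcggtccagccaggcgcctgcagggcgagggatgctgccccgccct
Krtdap, chr7:30787655-30787904, plus strand: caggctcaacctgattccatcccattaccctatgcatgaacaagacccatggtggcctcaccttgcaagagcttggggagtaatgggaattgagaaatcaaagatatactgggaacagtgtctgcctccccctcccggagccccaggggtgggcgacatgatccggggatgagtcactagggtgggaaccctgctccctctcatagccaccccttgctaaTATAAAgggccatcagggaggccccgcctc
Krt13, chr11:100121567-100121816, minus strand: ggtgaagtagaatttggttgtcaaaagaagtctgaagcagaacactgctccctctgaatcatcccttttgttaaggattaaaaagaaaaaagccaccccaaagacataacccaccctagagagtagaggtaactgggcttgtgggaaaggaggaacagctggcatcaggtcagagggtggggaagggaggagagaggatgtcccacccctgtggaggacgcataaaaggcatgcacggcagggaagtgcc

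The hair gene Krtap3-1 and the keratinocyte gene Krtdap each hold TATAAA on the gene's strand within 50 bases of the start. That was so in 32 of 77 member windows (41.6%), mostly of hair keratins, keratin-associated proteins and Sprr genes, and in 2.6% of all 32851 windows. GCGTG or its reverse complement stood in 22.1% of member windows and in 28.2% of all, and of the 4 windows above only that of Lgals3 has it. The windows of Cyp1a1 and of the related gene Cyp1b1 have it too. Of the 14 tested genes with TATAAA there, 3 had higher and 11 lower signals in TCDD at their brightest probe set, against 12 and 6 of the 18 tested genes without it. With GCGTG, 7 of 10 tested genes were higher, and without it 8 of 22. These splits cover only the 32 of 53 tested genes that had a window. Tested genes without a window include Krt81, Krt1, Perp, Krt17 and Pkp1, higher in TCDD, and Krt4 and S100a10, which were lower. The splits may therefore differ for the whole set. These counts are descriptions, since several of the genes are close copies of each other, and a match is not a binding site.

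No member passed the limma test over all 5783 probe sets: the adjusted p was 0.804 for Krtap3-1 and 0.997 for the other tested members, where 0.0692% of all tested probe sets passed. At an unadjusted p under 0.05, 8 of the 59 tested members (13.6%) were higher and 0 lower, beside 1.40% of all tested probe sets for higher and 1.19% for lower. The 8 were probe sets of Krtap3-1, Krt81, Lgals3, Krt13, Krt1, Perp and Krtdap, with Krt13 represented by 2. Krtap3-1 passed the filter through its higher TCDD signals, and without it the count was 7 of 58 (12.1%), an alternative chosen after seeing the data. Without DMSO replicate 1 the count was 5 of 57, and without DMSO replicate 2 it was 15 of 57 with 4 lower. Both TCDD arrays lay above both DMSO arrays in 15 tested members (25.4%, against 15.3% of all tested probe sets). They lay below in 6 (10.2%, against 14.6%). The median difference of the tested members was 0.13 and that of all tested probe sets 0.01. Without TCDD replicate 1 the members' median was 0.24, and without TCDD replicate 2 it was 0.06. Over all 141 member probe sets, dim ones included, it was -0.02, where that of all probe sets without the filter was -0.05.

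**Figure D1:**
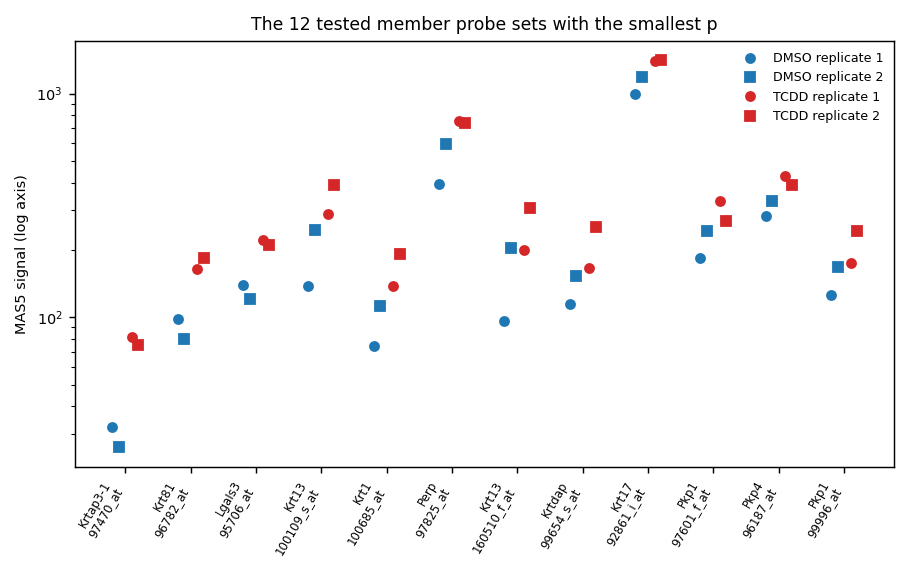
MAS5 signal (log axis) on each of the 4 arrays for the 12 tested member probe sets with the smallest p; blue is DMSO and red is TCDD, circles are replicate 1 and squares replicate 2. All 4 signals of a probe set are shown, and the groups overlap only for Krt13 160510_f_at, with 203.8 in DMSO replicate 2 and 200.3 in TCDD replicate 1.

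Among keratins of simple epithelia, single-layered and embryonic surfaces use the partners Krt8 and Krt18. Krt8 (101009_at) had 95.2 and 78.9 in DMSO and 85.6 and 92.7 in TCDD. Krt18 (94270_at) had 91.5 and 107.5 in DMSO and 122.5 and 103.0 in TCDD. Neither separated the groups, with differences of 0.03 ± 0.22 and 0.16 ± 0.21. Krt19, a keratin of many embryonic and ductal epithelia (92550_at), had 73.2 and 80.2 in DMSO and 99.5 and 108.2 in TCDD. Its groups did not overlap, at a difference of 0.37 ± 0.21. Krt7, of ductal epithelia, lay below the filter with 30.2 and 33.3 against 39.4 and 37.6, also without overlap.

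The basal layer keratins, which mark the proliferating layer next to the basement membrane, gave dim probe sets. Krt5 (94317_at) read 9.3 and 8.8 in DMSO and 9.6 and 9.0 in TCDD. Krt14, its partner (101041_at), read 10.8 and 10.1 in DMSO and 2.8 and 9.6 in TCDD. Krt15 (160852_at) stayed between 0.6 and 1.3. Trp63, the transcription factor that maintains stratified epithelium, was well within the tested range (103810_at), with 184.3 and 286.6 in DMSO and 255.6 and 283.3 in TCDD. It overlapped between the groups (0.21 ± 0.23).

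Keratins of the layers above the basal one had 4 of 6 tested probe sets higher in TCDD, and none passed the limma test. Krt13, a type I keratin of oral and other moist stratified epithelia (100109_s_at), had 137.2 and 246.3 in DMSO and 288.6 and 388.7 in TCDD. The TCDD arrays were both above the DMSO arrays, at a difference of 0.81 ± 0.27, which was 0.42 without DMSO replicate 1 and 1.20 without DMSO replicate 2. A further probe set of Krt13 (160510_f_at) had 96.5 and 203.8 in DMSO and 200.3 and 308.5 in TCDD, a difference of 0.75 ± 0.31. That difference was 0.27 without DMSO replicate 1, 1.24 without DMSO replicate 2 and 0.46 without TCDD replicate 2. Krt4, the type II partner of Krt13 in moist epithelia (100421_at), did not differ beyond its error. It had 205.5 and 193.4 in DMSO and 167.7 and 179.5 in TCDD, without overlap and with a difference of -0.18 ± 0.20. Krt1, a type II keratin of differentiating epidermis (100685_at), had 74.2 and 112.7 in DMSO and 137.7 and 191.4 in TCDD. Its groups did not overlap (0.73 ± 0.25), and the difference was 0.47 without DMSO replicate 1. Krt10, the partner of Krt1 (94321_at), had 163.8 and 135.3 in DMSO and 125.3 and 218.2 in TCDD, with TCDD arrays on either side of the controls (0.14 ± 0.26). Whether Krt13 differs from Krt4, or Krt1 from Krt10, in its response was not tested. Krt2, a late epidermal keratin (101698_f_at), had a signal of 98.3 in DMSO replicate 1 and of 35.1 to 50.4 on the other arrays. Its TCDD mean of 47.3 lay under the filter, which it passed through the DMSO group. Krt12, of the cornea, was below the filter with 45.5 and 29.8 against 15.3 and 22.5.

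The keratins Krt6a, Krt6b, Krt16 and Krt17 are made by embryonic surface cells and skin appendages, and by stratified epithelium under stress. Krt17 (92861_i_at) had 990.8 and 1184.5 in DMSO and 1403.1 and 1410.6 in TCDD. The groups did not overlap (0.37 ± 0.17), and its 92862_f_at gave 1209.5 and 1600.5 against 1532.4 and 1709.2 (0.22 ± 0.18). Its 161496_r_at, just below the filter with a mean of 48.7, had the opposite sign (-0.29). Krt6a (104369_at) had 843.2 and 1329.8 in DMSO and 1208.3 and 1711.7 in TCDD. Within each group replicate 2 was the higher, and the groups overlapped (0.44 ± 0.24). A further probe set of Krt6a (104370_s_at) had the same order of arrays, from 402.3 to 858.2. Krt6b (94316_at) ranged from 85.5 to 144.3 with a difference of 0.08 ± 0.25. Krt16, the partner of Krt6a, was below the filter at 8.1 and 28.4 in DMSO and 22.4 and 47.6 in TCDD. All 5 tested probe sets of this group were higher on average in TCDD, with 1 without overlap (20%, against 15.3% of all tested probe sets), where 51.1% of all were higher.

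Hair keratins and keratin-associated proteins, structural proteins of the hair and its follicle, split into a few higher probe sets and a majority of lower ones. Krtap3-1 (97470_at) had 32.3 and 26.2 in DMSO and 81.6 and 74.9 in TCDD. The TCDD arrays were close together and far above the controls, a difference of 1.06 ± 0.24. Its DMSO signals lay under the filter, which it passed through the TCDD arrays, and without either TCDD array it was not tested. Krt81, a type II hair keratin (96782_at), had 98.6 and 80.1 in DMSO and 164.9 and 183.3 in TCDD (0.86 ± 0.21). These were the only 2 tested members with signal + 16 at least 1.5 times higher in each TCDD array than in each DMSO array, as in 0.190% of all tested probe sets. In the lower direction there were 0 members, against 0.0692%. Other probe sets of Krt81 did not follow: 161174_i_at had 8.9 and 10.9 in DMSO and 2.0 and 4.0 in TCDD.

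The other tested hair genes gave differences from -0.44 to 0.06, each with overlap between the groups. Krt32 (97767_at) had 140.3 and 96.8 in DMSO and 97.2 and 88.0 in TCDD (-0.29 ± 0.23). Krt33b (97814_at) had 103.2 in DMSO replicate 1 and 49.0 to 68.5 on the other arrays. Krt36 differed by -0.26 ± 0.26 and Krt86 by 0.06 ± 0.35. The TCDD mean of Krt36, 48.2, lay under the filter, which it passed through the DMSO group. Krtap13 (94183_at) had 172.0 and 97.4 in DMSO and 125.9 and 66.2 in TCDD, and Krtap5-1 (93710_at) had 368.8 and 319.2 against 245.3 and 322.1, with differences of -0.44 ± 0.31 and -0.27 ± 0.21. All 16 hair keratin probe sets below the filter were lower in TCDD, 10 of them without overlap. Krt84 (162328_f_at) had 49.2 and 28.6 in DMSO and 25.2 and 21.2 in TCDD.

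That pattern has to be read against dim probe sets in general. Of all 6639 probe sets below the filter 71.1% were lower in TCDD, with a median difference of -0.10, and of the 82 dim members 67.1% were, with a median of -0.09. The TCDD arrays lay below the DMSO arrays without overlap in 26 dim members (31.7%, against 26.2% of all dim probe sets) and above in 7 (8.54%, against 6.88%). A ratio of at least 1.5 in all 4 pairs was met by 1 dim member in the higher direction, Slpi 92858_at (0.151% of all dim probe sets), and by 1 in the lower direction, S100a5 (0.286%).

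**Figure D2:**
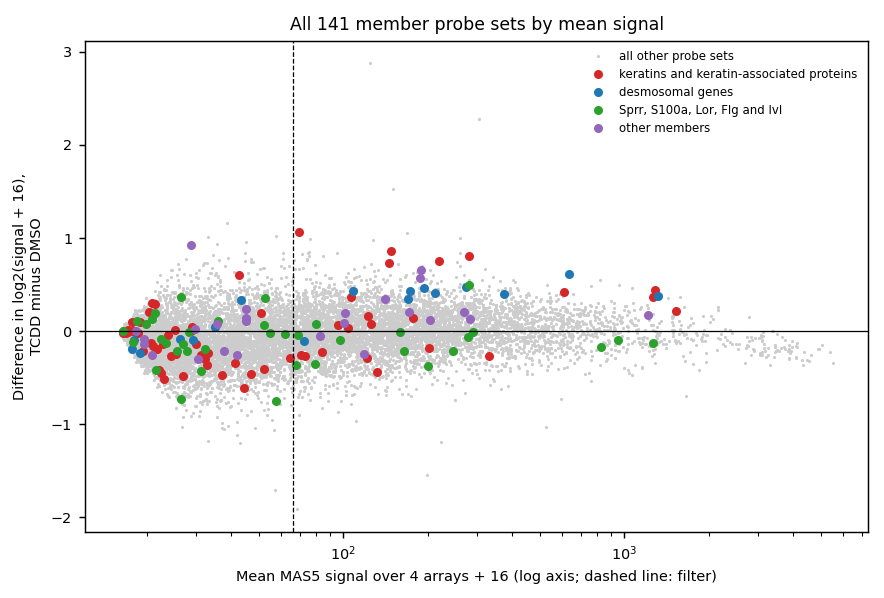
Difference in log2(signal + 16), TCDD minus DMSO, against the mean signal over 4 arrays + 16 (log axis) for all 141 member probe sets in colour and the other probe sets in grey; the dashed line is the filter at a mean signal of 50. Of all probe sets left of the line 71.1% lie below 0, with a median of -0.10. The tested members of highest difference, Krtap3-1 and Krt81, lie at 1.06 and 0.86.

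Desmosomal genes leaned toward higher signals after TCDD, with no gene past the test. Of 10 tested probe sets for 9 genes, 9 were higher in TCDD with a median difference of 0.42, 5 of them without overlap (50%, against 15.3% of all tested probe sets), and 0 passed the limma test (1 at an unadjusted p under 0.05). Leaving out any of the 4 arrays in turn gave 8 of 9, 9 of 9, 9 of 10 or 10 of 10 higher, with medians from 0.27 without DMSO replicate 1 to 0.64 without DMSO replicate 2. Of the 7 desmosomal probe sets below the filter 5 were lower, 3 without overlap. Of all probe sets below the filter 71.1% were lower, 26.2% without overlap. Of all 17 desmosomal probe sets 11 were higher, with a median of 0.34, where that of all probe sets was -0.05. Perp, a tetraspan protein needed for desmosome assembly and a target of p63 (97825_at), had 393.2 and 592.1 in DMSO and 756.8 and 738.0 in TCDD. Its TCDD arrays lay close together and above both controls, a difference of 0.61 ± 0.21. Without DMSO replicate 1 the difference was 0.33, and without DMSO replicate 2 it was 0.90.

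Plakophilins, the armadillo-repeat proteins of the desmosomal plaque, were higher in TCDD at every tested probe set. Pkp1 (97601_f_at) had 183.1 and 243.0 in DMSO and 331.0 and 269.1 in TCDD, and its 99996_at had 126.3 and 168.1 against 174.3 and 243.6. Both lacked overlap, with differences of 0.47 ± 0.22 and 0.46 ± 0.23. Without DMSO replicate 1 these were 0.28 and 0.27, and without TCDD replicate 2 the latter was 0.23. Pkp4, which also sits at adherens junctions (96187_at), had 283.9 and 330.2 in DMSO and 427.9 and 389.5 in TCDD (0.40 ± 0.19). Pkp3 (160944_at) had 52.7 in DMSO replicate 1 and 95.9 to 116.3 on the others, with overlap. Pkp2, which is prominent in heart and simple epithelia, stayed at or below 16.8 at all 3 of its probe sets.

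The linker and cadherin genes showed more spread. Dsp, which encodes desmoplakin, the tie between plaque and keratin (94247_at), had 936.4 and 1346.5 in DMSO and 1379.2 and 1566.5 in TCDD (0.38 ± 0.20). The gap between DMSO replicate 2 and TCDD replicate 1 was small. Jup, which encodes plakoglobin (104121_at), had 174.5 and 99.2 in DMSO and 188.3 and 155.8 in TCDD. Dsc2, a desmocollin of simple and stratified epithelia (103506_f_at), had 113.1 and 145.8 in DMSO and 225.9 and 141.4 in TCDD. Dsg2, a desmoglein with the same breadth (104480_at), had 147.4 and 180.6 in DMSO and 275.9 and 178.6 in TCDD. In both cadherins TCDD replicate 1 stood above the other 3 arrays, and the differences were 0.43 ± 0.25 and 0.41 ± 0.24. Dsc3, the desmocollin of basal stratified cells (97655_at), was the tested desmosomal gene with a difference below 0 (-0.11 ± 0.44). It had 30.5 and 86.0 in DMSO and 24.2 and 85.5 in TCDD, so that arrays of equal replicate number lay close together. Dsc1, of the upper epidermis, read 8.5 to 11.4.

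**Figure D3:**
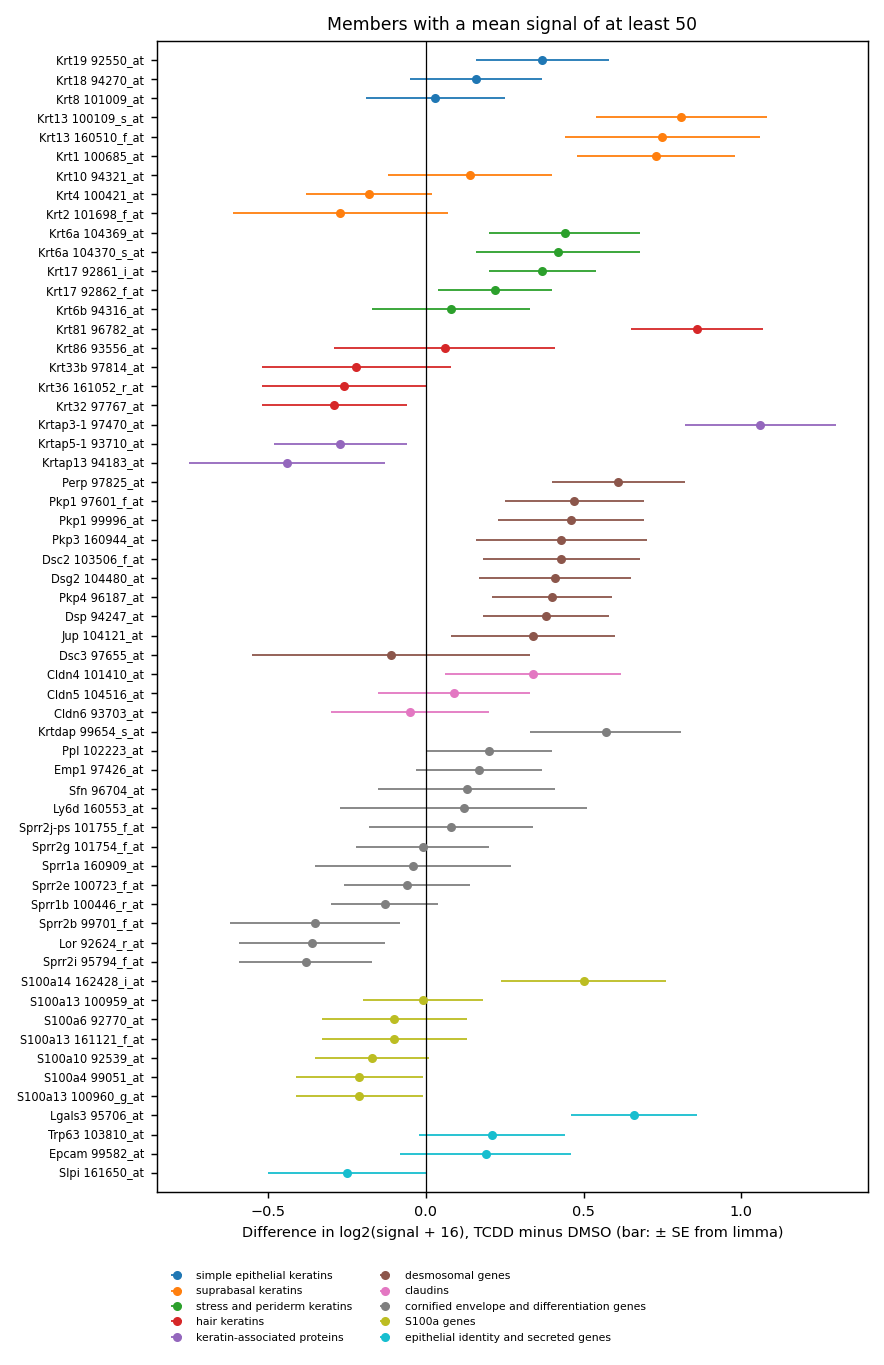
Difference in log2(signal + 16), TCDD minus DMSO, with its limma standard error, for the 59 tested member probe sets, ordered and coloured by role. Of 10 desmosomal probe sets 9 lie right of 0, while of the 7 Sprr and 7 S100a probe sets 1 each does.

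Claudins, the sealing proteins of tight junctions, showed no separation of the groups in the 3 tested. Cldn4 (101410_at) had 79.1 and 138.0 in DMSO and 111.0 and 169.7 in TCDD (0.34 ± 0.28). Cldn6, of embryonic epithelia, ranged from 51.3 to 80.3, and Cldn5, the endothelial claudin, from 71.4 to 104.7. Cldn7 (99561_f_at), below the filter, ranged from 22.5 to 34.9, with both TCDD arrays above both DMSO arrays.

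Of the 13 tested probe sets of terminal differentiation genes 6 were higher and 7 lower in TCDD, with a median of -0.01. Krtdap, a secreted protein of differentiating keratinocytes (99654_s_at), had 114.4 and 153.5 in DMSO and 166.4 and 252.0 in TCDD. The groups did not overlap (0.57 ± 0.24), and the difference was 0.29 without TCDD replicate 2 and 0.85 without TCDD replicate 1. Ppl, the envelope and desmosome linker periplakin (102223_at), had 136.0 and 150.6 in DMSO and 157.8 and 176.2 in TCDD (0.20 ± 0.20). Sfn, the epithelial 14-3-3 protein, Emp1, an epithelial membrane protein, and Ly6d, a keratinocyte surface protein, overlapped, with differences of 0.13 ± 0.28, 0.17 ± 0.20 and 0.12 ± 0.39. Evpl had no probe set of its own here.

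Most tested envelope precursors had lower signals in TCDD, none at an unadjusted p under 0.05. Lor, which encodes loricrin (92624_r_at), had 62.8 and 57.2 in DMSO and 43.4 and 43.2 in TCDD, without overlap (-0.36 ± 0.23). Its TCDD signals lay under the filter, which it passed through the DMSO arrays. Its dim 162324_at had the opposite sign (0.19), with overlap. Of 7 tested Sprr probe sets 6 were lower, where 51.1% of all tested probe sets were higher. Without overlap 1 of the 7 was lower (14.3%, against 14.6% of all tested probe sets). Sprr2g, Sprr1a and Sprr2e differed by only -0.01 ± 0.21, -0.04 ± 0.31 and -0.06 ± 0.20. Sprr2i (95794_f_at) had 232.6 and 188.3 in DMSO and 173.5 and 142.6 in TCDD, a difference of -0.38 ± 0.21 without overlap. Sprr1b (100446_r_at) had 1399.6 and 1220.3 in DMSO and 1136.4 and 1245.2 in TCDD, while its 100445_f_at stayed at or below 9.2. The 5 tested Sprr2 probe sets bear the suffix f, for probes shared across a family, so the copies cannot be told apart. Sprr2k, below the filter (101756_f_at), had 60.0 and 51.8 against 22.9 and 31.1. Ivl, which encodes involucrin, stayed at or below 6.2. Flg, which encodes filaggrin (100420_at), had 8.4 and 5.7 against 13.7 and 13.9.

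S100a genes encode small calcium-binding proteins, several of them made by keratinocytes, and lie beside the Sprr, Lor, Flg and Ivl genes in the epidermal differentiation complex. S100a10 (92539_at), the annexin partner, had 799.7 and 925.5 in DMSO and 729.5 and 799.2 in TCDD (-0.17 ± 0.18). S100a6 (92770_at) had 984.4 and 922.2 in DMSO and 688.3 and 1144.8 in TCDD, so the exposed arrays lay on either side. S100a4, of mesenchymal cells (99051_at), had 251.8 and 241.6 against 192.7 and 232.5 (-0.21 ± 0.20). The 3 tested probe sets of S100a13 differed by -0.21, -0.10 and -0.01. S100a14, an epithelial member (162428_i_at), was the exception, with 285.8 and 157.9 in DMSO and 291.0 and 324.3 in TCDD (0.50 ± 0.26). Its 104594_at was dim and had the opposite sign, with 24.8 and 14.4 against 14.4 and 6.6. S100a5 (95301_at) had 19.2 and 14.9 in DMSO and 4.3 and 3.6 in TCDD, all below the filter.

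Taken as a chromosomal neighbourhood, a grouping chosen after the values were seen, 13 of the 15 tested Sprr, S100a and Lor probe sets were lower and 2 higher, with a median of -0.10. Lor, among the lower ones, passed the filter through its DMSO signals. Over all tested probe sets 51.1% were higher. The number higher was 6 of 14 without DMSO replicate 1, 4 of 15 without TCDD replicate 1 and 5 of 14 without TCDD replicate 2. Keratins had 14 of 19 higher, with a median of 0.16, which was 0.38 without TCDD replicate 1, 0.26 without DMSO replicate 2 and 0.10 without TCDD replicate 2. Over all 50 keratin probe sets, dim ones included, 22 were higher, with a median of -0.02, where that of all probe sets was -0.05. A difference between these groups was not tested.

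Among the remaining members, Lgals3 encodes galectin-3, a lectin of epithelia and of macrophages. It had 140.0 and 120.9 in DMSO and 220.3 and 209.7 in TCDD (95706_at). The groups did not overlap, at 0.66 ± 0.20 (limma adjusted p 0.997). Of 12 listed macrophage markers 8 were tested and all 8 were higher, where 51.1% of all tested probe sets were. Of the 10 macrophage probe sets below the filter 7 were lower, where 71.1% of all probe sets below it were. The summed signal over the 12 markers was 705.0 to 741.1 with DMSO against 937.6 to 946.6 with TCDD, with none at 0. The part of macrophages in the Lgals3 result was not tested. S100a8, of neutrophils and stressed keratinocytes, read 9.9 to 28.2 without separation, and 0 of 7 neutrophil markers reached the filter. Slpi, a secreted protease inhibitor, gave opposite signs. Its 161650_at had 142.5 and 84.7 against 89.6 and 91.6, and its dim 92858_at had 3.7 and 3.2 against 15.7 and 27.6. Epcam, an epithelial adhesion protein (99582_at), had 93.4 and 63.5 in DMSO and 115.1 and 70.8 in TCDD (0.19 ± 0.27). In such whole explants, more epithelial cells and more RNA per epithelial cell cannot be told apart.

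Genes outside the set that serve the same epithelium were read from lists by function. Of 10 tested adherens and tight junction genes 4 were higher and 6 lower. Cdh1, which encodes E-cadherin (98140_at), had 170.3 and 141.1 in DMSO and 101.2 and 120.5 in TCDD, without overlap and with a difference of -0.44 ± 0.21. F11r, a tight junction adhesion protein (103816_at), had 261.4 and 368.4 against 434.3 and 409.8 (0.42 ± 0.21). Of 8 hemidesmosome genes, which fix keratin to the basement membrane, 5 were higher. Col17a1 (160594_at) had 183.5 and 168.0 in DMSO and 280.7 and 216.2 in TCDD, while Cd151, a tetraspanin partner of integrins (161823_r_at), had 66.3 and 59.7 against 42.2 and 37.1. Brighter probe sets of Cd151 differed by -0.25 ± 0.21 (97930_f_at) and -0.02 ± 0.21 (97932_f_at). Of 9 tested regulators and enzymes of epidermal differentiation 5 were higher. Gjb2, a connexin gene whose product links epithelial cells through gap junctions (98423_at), had 54.4 and 88.1 in DMSO and 157.1 and 148.2 in TCDD (0.98 ± 0.24). Klf5, a transcription factor of proliferating epithelia (97937_at), had 163.7 and 175.4 in DMSO and 359.2 and 276.7 in TCDD. Anxa1, which encodes annexin A1 (161703_f_at), had 648.7 and 583.8 against 1007.7 and 751.6 (0.49 ± 0.20). Its brighter 93038_f_at differed by 0.32 ± 0.19, and its 93037_i_at, with overlap, by 0.37 ± 0.29. None of these list members passed the limma test.

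Members differed more between the replicates than between the treatments about as often as all tested probe sets did. The replicate difference, averaged over the groups, was larger in size than the TCDD difference in 32 of the 59 tested members (54.2%) and in 56.4% of all tested probe sets. Replicate 2 was higher by over 0.5 in both groups in 6 tested members (10.2%, against 1.90% of all tested probe sets), namely Dsc3, Ly6d, Sfn, Cldn4, Krt6a and Krt13. Replicate 1 was higher by over 0.5 in both groups in 2, Krt86 and Krtap13 (3.39%, against 1.90%). Ly6d (160553_at) had 110.3 and 112.7 on the replicate 1 arrays and 241.7 and 282.9 on the replicate 2 arrays. Krt86 (93556_at) had 107.8 and 110.6 on those of replicate 1 and 48.0 and 52.0 on those of replicate 2. Other tissue markers moved with replicate number. The summed signal of dental epithelium markers was 621.0 and 590.9 in replicate 1 and 823.4 and 901.9 in replicate 2. Most of that gap came from Lef1, with 242.0 and 229.0 against 362.5 and 376.4, and from Shh. Cdh1 of the same list moved in opposite directions in the groups, with 170.3 and 101.2 against 141.1 and 120.5. The summed signal of dental mesenchyme markers was 2133.9 and 2273.3 against 2651.5 and 2710.3. That of skeletal muscle markers was 752.4 and 985.5 against 319.5 and 358.9. The epithelial member Epcam was higher in replicate 1, with 93.4 and 115.1 against 63.5 and 70.8. The part of these tissues in the replicate differences was not tested. Across the 59 tested members the replicate differences of the groups had a correlation of 0.51, and across all 5783 tested probe sets of 0.38, as a description over probe sets that share arrays.

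**Figure D4:**
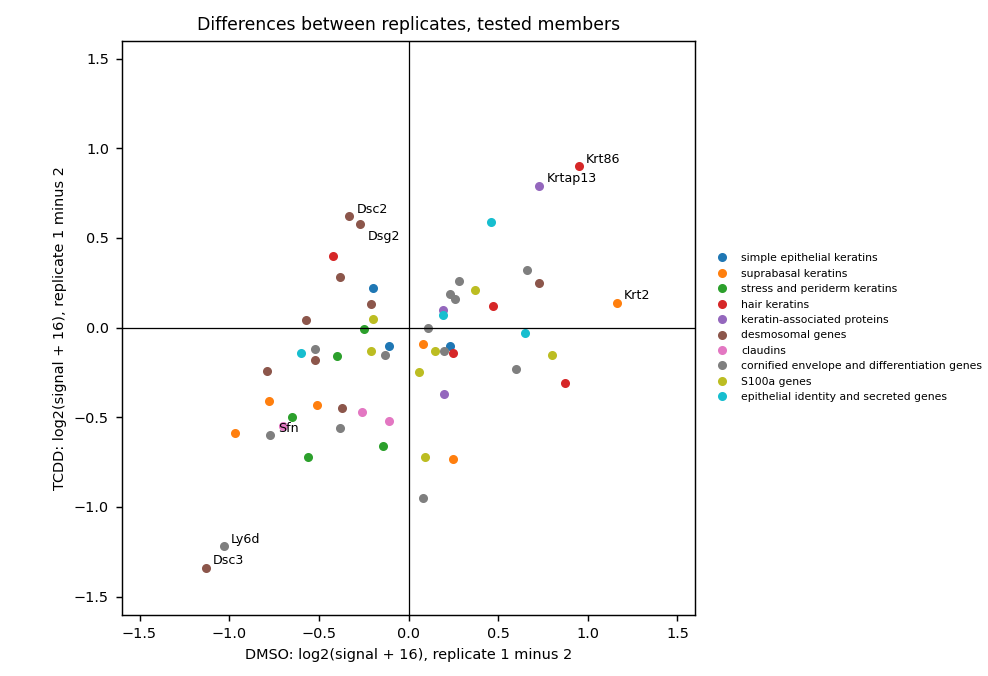
Difference in log2(signal + 16) between replicate 1 and replicate 2 in the DMSO group (horizontal axis) and the TCDD group (vertical axis) for the 59 tested member probe sets, coloured by role. Dsc3 and Ly6d lie furthest toward replicate 2 in both groups, at -1.13 and -1.03 in DMSO and -1.34 and -1.22 in TCDD, and Krt86 and Krtap13 toward replicate 1.

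Of the 100 genes, 31 had several probe sets, and in 15 of these the probe sets pointed in both directions. The 5 genes with several tested probe sets, Krt6a, Krt13, Krt17, Pkp1 and S100a13, kept 1 sign over their tested probe sets, while the dim one of Krt17 had the opposite sign. In the others the partner was dim, as for Dsp, whose 161892_r_at stayed at or below 3.8. For Krt13, Krt17, Pkp1 and S100a13, 1 of the tested probe sets bears the suffix f, so it may not be specific to its gene.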

How the data were processed

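The deposited values are MAS5 intensity signals, 1 per probe set and array, made by the authors with Affymetrix Microarray Suite 5.0 at a target of 100, per the labels; no detection calls or probe-level files were used here. In 37.1% of cells a spreadsheet had turned the signal into a calendar day serial; these were turned back into day.month. This touched 253 of the 564 member values, all under 32. Symbols came from the platform annotation, looked up by Entrez ID in the GRCm38.p6 gene table (10817 of 10833 matched). A linear model was fitted by limma 3.58.1 under R 4.3.3 (eBayes with a variance trend, 10.8 total degrees of freedom) on log2(signal + 16), over 5783 probe sets with a mean of at least 50, Affymetrix controls left out, with Benjamini-Hochberg adjustment at 0.05, and was tested on simulated data. The number of arrays limits precision; depth has no count. Equal replicate numbers were not taken to pair the arrays, as no label says so. Members and lists were chosen with earlier results of these data known. Named genes were tested members, members below the filter with a mean of at least 25, with a 1.5-fold ratio in all array pairs, with another probe set tested or defining a role, and up to 4 genes of smallest p per other list; Krt15, Dsc1, Pkp2, Flg and S100a8 were named after their values were seen. Alternatives changed the offset, filter, scaling, repair, variance model, replicate block, arrays and probe set choice.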

Additional observations from a re-analysis of the deposited data

How the results depend on the processing

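The count of 0 members past the limma test held with offsets of 1 and 64, without a filter and with filters at 25 and 100, with quantile normalization or median centring, with repaired cells set to 16, without a variance trend, with 1 probe set per gene and without each array. With the replicate block 5 member probe sets passed (Krtap3-1, Krt81, both of Krt13 and Krt1), among 32 of all probe sets against 4 in the fit without it; limma adjusted p of Krtap3-1 was then 0.00242, and 19 members were higher at an unadjusted p under 0.05. That fit left 1 residual degree of freedom, so each variance was taken from the shared trend, and the numbers are not known to pair the samples. Over all probe sets 2 passed without the filter, and 2 to 5 without 1 array. The members' median was -0.02 without the filter, and so was that of the keratins, where the median of all probe sets was -0.05 and the share of members higher 44.7% in place of 61%; the added dim probe sets were mostly lower. No detection calls were used, so signal over background is not known, and 2 arrays per group limit every value.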
